A study of Arabidopsis thaliana with 6 samples.

Results

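IR2039 is an inverted repeat on chromosome 3 of Arabidopsis thaliana, positions 16158977 to 16161019 of TAIR10. It is 1 of the 10 loci in the series, and all of its 2043 positions in all 6 libraries are described here. An inverted repeat gives a transcript whose arms are complementary, so that the RNA folds back into a long hairpin. DCL4 is one of the Dicer-like enzymes of Arabidopsis, which dice double-stranded RNA into siRNAs. Its known substrates include such hairpins, the precursors of trans-acting siRNAs and a few young miRNA precursors. The question behind the series is how well altered forms of DCL4 act on each kind of substrate.

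RNA that precipitated with DCL4 was sequenced from seedlings and from flowers. DCL4-6:FHA and DCL4-8:FHA are missense forms of DCL4 with the FHA tag, expressed from the DCL4 promoter (pDCL4) in dcl4-2 -/- plants, and WT is untagged Col-0. All plants were ecotype Columbia, grown in soil at 22 °C with 16 h of light and 8 h of dark, and their ages are not given in the sources used here. There is no tagged wild-type form of DCL4 among the groups, so a tagged line is set against the other tagged line and against WT. Each of the 3 lines gave 1 library per tissue, so there are no replicates, no test was made and no difference has a replicate check. Intervals are 95% intervals from read numbers and cover counting error only. Fewer cells with IR2039 RNA and less IR2039 RNA per cell cannot be told apart in these tissues. No library of RNA before precipitation is among the groups. Differences in IR2039 RNA, in the amount of tagged DCL4 and in its recovery can therefore not be told apart either.

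Aligned with its own reverse complement, the interval matched itself from 16158977 to 16160930 with 90.6% identity over 1965 columns, around a centre at 16159953.5. The left arm, at the lower coordinates, held 954 bases (16158977 to 16159930), and the right arm held 952 (16159979 to 16160930). Between them lay a loop of 48 bases (16159931 to 16159978), and 89 bases at the right end lay beyond the alignment. Over 956 aligned columns the arms were 91.8% identical and differed at 78. The predicted fold of the upper strand paired 94.1% of the left-arm bases with the right arm, and its innermost such pair joined 16159930 to 16159979, the same ends. Read in a wider window, the repeat ran on for 694 bases to the left and 609 to the right of the interval. Those bases are not analysed here, so the inner part of the hairpin is what is described.

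The stretches that follow are printed because the results turn on them, each 5′ to 3′ and taken from the TAIR10.1 assembly of RefSeq. The first is the 50 nt bin with the highest coverage summed over the 4 tagged libraries, chr3:16159827-16159876 on the upper strand. The second is the stretch it aligns with in the right arm, chr3:16160032-16160082 on the lower strand. Capitals mark the 5 columns at which they differ, 1 of them a base that the right arm has and the left arm lacks.
left arm: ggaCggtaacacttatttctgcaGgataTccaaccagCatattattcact
right arm: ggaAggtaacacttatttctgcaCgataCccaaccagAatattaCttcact
The third is the loop on the upper strand, chr3:16159931-16159978, printed with no capitals because it lies between the arms and is set against no other stretch.
loop: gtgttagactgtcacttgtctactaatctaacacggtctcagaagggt

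The interval overlaps a pair of genes that converge on the loop. AT3G44570 is annotated on the plus strand as protein coding, with the product retrotransposon ORF-1 protein, partial, and its last 859 bases lie in the interval. AT3G44580 is on the minus strand, encodes an uncharacterized protein, and has 682 bases in the interval, including its 3′ UTR. The 502 bases between them, 16159836 to 16160337, hold the loop and the inner ends of both arms. The gene parts are therefore also parts of the arms, and coverage carries no strand, so reads from a gene transcript, from its antisense strand and from the hairpin cannot be told apart.

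Reads of IR2039 were nearly all from the tagged lines. The summed coverage was worth 739 reads in DCL4-6:FHA flowers, 1780.3 in DCL4-8:FHA flowers, 322 in DCL4-6:FHA seedlings and 1122 in DCL4-8:FHA seedlings. WT gave 0 reads in flowers and 2 in seedlings, where its library was small (1961876 reads, against 11255618 to 21771069 in the other 5). The WT seedling reads lay at 16159303 to 16159352 in the left arm and at 16160154 to 16160203 in the right arm, 1 in each.

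Both arms stood above WT. The left arm in flowers stood at 1.26 RPM (DCL4-6:FHA) and 4.54 RPM (DCL4-8:FHA). These levels are 127-fold and 458-fold higher than a floor of 3 reads per library in WT, ratios that leave out counting error. The right arm was at 1.20 and 3.75 RPM, 121-fold and 378-fold higher than that floor. In seedlings the left arm stood at 0.547 RPM (DCL4-6:FHA) and 1.48 RPM (DCL4-8:FHA), and 1 WT read gave ratios of 20.5 (3.64 to 815) and 55.2 (9.88 to 2185). For the right arm, at 0.404 and 1.22 RPM, the ratios were 15.1 (2.67 to 601) and 45.7 (8.16 to 1808). The WT background in seedlings is thus known far less precisely than in flowers.

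Coverage was concentrated near the centre of the repeat. The 1000 positions within 500 nt of the centre held 88.2% of the coverage in DCL4-6:FHA flowers, 81.9% in DCL4-8:FHA flowers, 93.6% in DCL4-6:FHA seedlings and 85.8% in DCL4-8:FHA seedlings. The 643 positions more than 700 nt away held 1.91%, 1.91%, 0.620% and 2.46%. In each tagged library 50% of the coverage fitted on 239 to 333 of the 2043 positions. The 50 nt bin of the arms with the least coverage summed over the 4 tagged libraries was the outermost of the left arm, 16158977 to 16159026, at 0 RPM in both DCL4-6:FHA libraries and at 0.0462 and 0.0276 RPM in flowers and seedlings of DCL4-8:FHA.

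**Figure D1:**
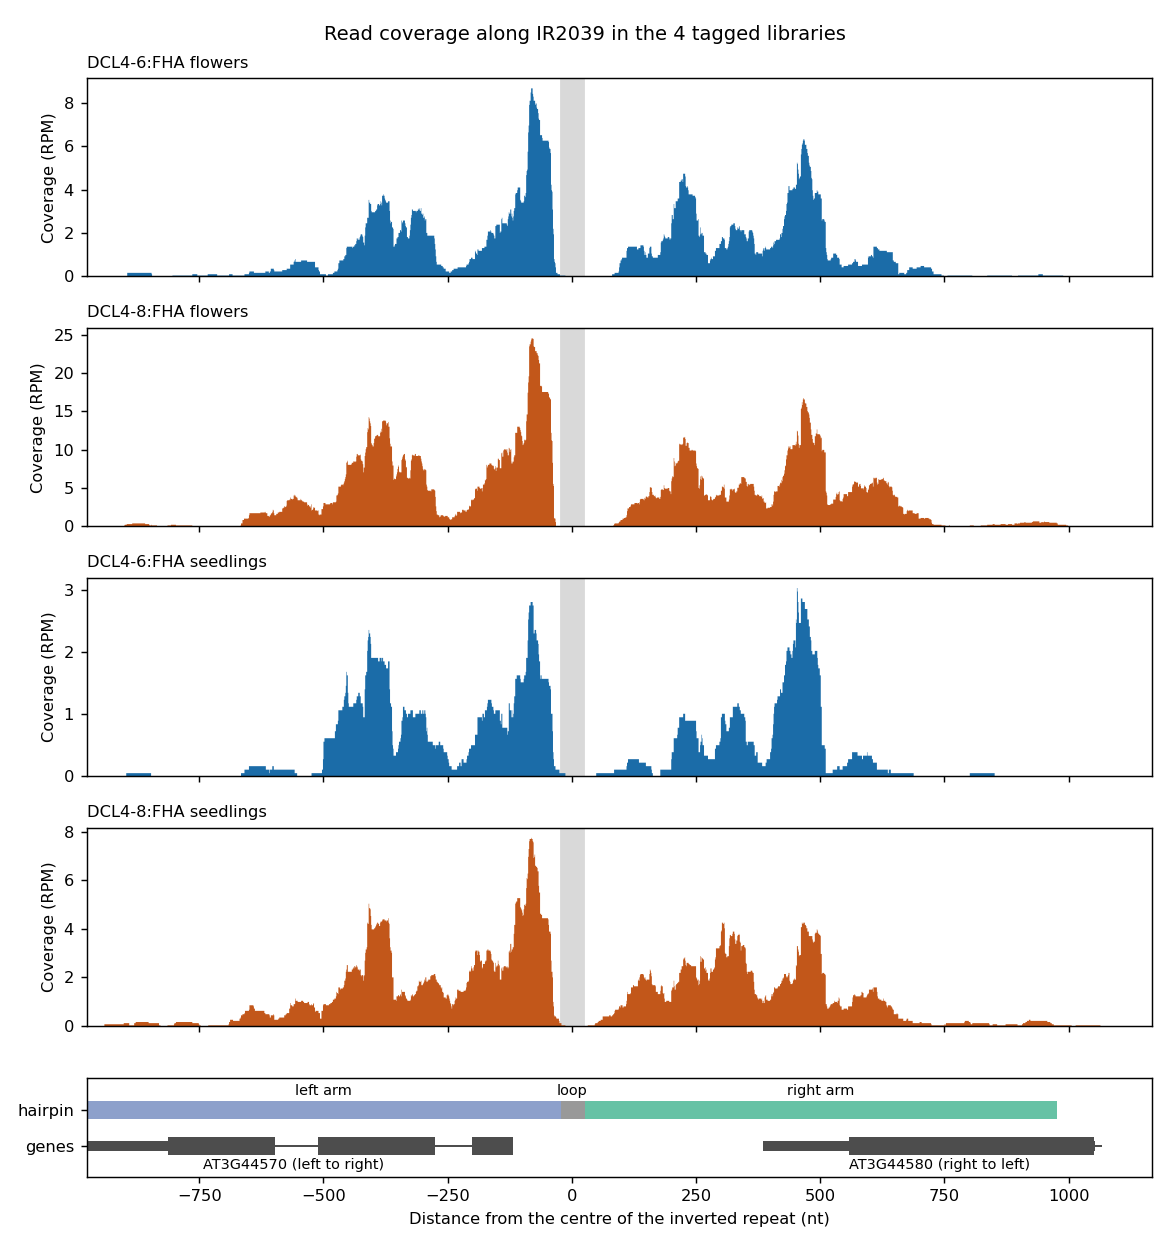
Read coverage in RPM at each position of IR2039 for the 4 tagged libraries, against distance from the centre in nt, with a map of the hairpin and of the annotated genes below (thick bars coding, thin bars UTR, lines introns) and the loop shaded. The highest point lies left of the loop in all but DCL4-6:FHA seedlings, and the loop itself holds at most 3 reads at any position; the vertical scales differ between panels.

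Depth was highest beside the loop on its left in all tagged libraries but DCL4-6:FHA seedlings. It peaked at 16159871 in DCL4-6:FHA flowers (137 reads, 8.68 RPM), at 16159872 in DCL4-8:FHA flowers (277 reads, 24.6 RPM) and at 16159871 in DCL4-8:FHA seedlings (169 reads, 7.76 RPM). In DCL4-6:FHA seedlings the left arm peaked at 16159870 (50 reads), and the maximum of the interval lay in the right arm at 16160406 (54 reads, 3.04 RPM). The left peak thus fell within 3 positions in all 4 libraries, 81.5 to 83.5 nt from the centre.

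The bin at 16159877 to 16159926 was the highest in DCL4-6:FHA flowers with 10.8% of the coverage (8.68 to 13.3), followed by the printed left-arm bin at 16159827 to 16159876 with 10.1% (7.94 to 12.4). In DCL4-8:FHA flowers the order was the other way, with 9.04% and 9.03%, which cannot be told apart at this depth. In DCL4-8:FHA seedlings the printed bin was the highest with 10.3% (8.62 to 12.3), followed by the bin at 16159527 to 16159576 in exon 3 of AT3G44570 with 7.33% (5.85 to 8.99). In DCL4-6:FHA seedlings the bin at 16160377 to 16160426, in the 3′ UTR of AT3G44580, led with 12.7% (9.29 to 16.9), again followed by the exon 3 bin with 9.81% (6.90 to 13.7). WT had no coverage in the printed bin in either tissue. The place of the highest bin moved with its width in DCL4-6:FHA flowers, where bins of 100 nt put it in the right arm, at 16160377 to 16160476 in the 3′ UTR of AT3G44580, with 16.2% of the coverage. In the other 3 tagged libraries the highest bin stayed in its arm with bins of 25 nt and of 100 nt.

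The left peak ended in a steep edge that faces the loop. These edges were looked for after the profiles had been seen. The last position at 50% or more of the peak was 16159910 in 3 libraries and 16159909 in DCL4-8:FHA seedlings, and depth was at or under 10% of the peak by 16159916 or 16159917. The fall took 7, 7, 6 and 8 nt in DCL4-6:FHA flowers, DCL4-8:FHA flowers, DCL4-6:FHA seedlings and DCL4-8:FHA seedlings. On the other side of the peak the same fall took 104, 116, 98 and 126 nt. The edge lies within the left arm, short of the loop.

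The loop was nearly empty. Its 48 bases held coverage worth 0.18, 0, 0.18 and 0.22 reads in the same order, with a depth of at most 1, 0, 1 and 3 reads. Per base this was 0.00968 times the level of the arms in DCL4-6:FHA flowers (0 to 0.199), 0 in DCL4-8:FHA flowers (0 to 0.0824), 0.0222 in DCL4-6:FHA seedlings (0 to 0.458) and 0.00780 in DCL4-8:FHA seedlings (0 to 0.131). The intervals use reads rounded to whole numbers, which is 0 in the loop of each tagged library, whereas the ratios use the fractions. Every upper limit is below 1, although no library had a whole read's worth of coverage in the loop. WT had none there either.

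The uncovered stretch reached beyond the loop on its right. It ran from 16159940 to 16160033 in DCL4-6:FHA flowers (94 nt), from 16159921 to 16160034 in DCL4-8:FHA flowers (114 nt), from 16159940 to 16160001 in DCL4-6:FHA seedlings (62 nt) and from 16159940 to 16159984 in DCL4-8:FHA seedlings (45 nt). Every 50 nt stretch over these positions occurs at a unique place in the genome. Stretches with more than 1 place touch only 16159144 to 16159223 and 16160702 to 16160763, both far from the centre.

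Summed over its length the right arm held somewhat less coverage than the left. The ratio of right to left was 0.954 in DCL4-6:FHA flowers (0.824 to 1.11), 0.827 in DCL4-8:FHA flowers (0.752 to 0.908), 0.738 in DCL4-6:FHA seedlings (0.588 to 0.925) and 0.829 in DCL4-8:FHA seedlings (0.735 to 0.934). The interval of the first includes 1, and those of the other 3 lie below it. The order depended on how a level was taken. With the median over positions the ratio crossed 1 to 2.17 in DCL4-6:FHA flowers and turned to 1.63 in DCL4-8:FHA flowers and 1.10 in DCL4-8:FHA seedlings, and with the maximum it turned to 1.08 in DCL4-6:FHA seedlings. Per base over all positions on either side of the centre, the ratios were 0.873, 0.757, 0.675 and 0.761. The right side is longer there, 1066 bases against 977. It includes the 89 bases beyond the alignment, which held only 0.22, 1.18, 0 and 1.56 reads and so lower its level per base.

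Although the arms are near copies of each other, their coverage was not. Over 950 matched bases Pearson's r between the arms was -0.024 in DCL4-6:FHA flowers, 0.047 in DCL4-8:FHA flowers, 0.32 in DCL4-6:FHA seedlings and 0.20 in DCL4-8:FHA seedlings, a description with no p, since the bases of an arm share reads. The difference was widest next to the loop. The left-arm bases 16159877 to 16159926 were at 5.06, 14.3, 1.32 and 3.75 RPM, and the right-arm bases 16159983 to 16160031 that they align with were at 0, 0, 0.0344 and 0.224 RPM. The left was at least 26.1-fold higher than a floor of 3 reads in DCL4-6:FHA flowers and at least 52.5-fold higher in DCL4-8:FHA flowers.

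The printed pair, next outward, went the same way. Its left stretch was at 4.70, 14.3, 1.77 and 5.32 RPM and its right stretch at 0.823, 1.45, 0.168 and 1.02 RPM. The left over right ratio was 5.71 in DCL4-6:FHA flowers (3.20 to 11.4), 9.88 in DCL4-8:FHA flowers (5.85 to 17.0), 10.6 in DCL4-6:FHA seedlings (3.29 to 53.9) and 5.21 in DCL4-8:FHA seedlings (3.27 to 8.44). The left stretch was thus the higher one in all 4 tagged libraries.

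Farther out the order of the arms turned several times, and not alike in all libraries. Opposite 16159627 to 16159676 the right over left ratio was 0.576 (0.397 to 0.835) in DCL4-8:FHA flowers but 1.91 (1.26 to 2.89) in DCL4-8:FHA seedlings. With DCL4-6:FHA it was 0.613 (0.355 to 1.03) in flowers and 0.823 (0.360 to 1.80) in seedlings. Opposite 16159727 to 16159776 it was above 1 in flowers, and in seedlings it was 0.902 (0.324 to 2.46) with DCL4-6:FHA and 0.764 (0.479 to 1.18) with DCL4-8:FHA. The right arm was higher opposite 16159677 to 16159726, with right over left ratios of 5.65 (2.51 to 15.1), 4.71 (2.73 to 8.13), 1.97 (0.634 to 6.16) and 1.74 (1.08 to 2.82), the third of which has an interval that includes 1. The left arm was higher again at 16159527 to 16159576, in exon 3 of AT3G44570, with left over right ratios of 1.89 (1.12 to 3.22), 2.77 (1.97 to 4.01), 2.34 (1.23 to 5.01) and 2.70 (1.74 to 4.22).

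Beyond that the right arm was higher once more. The right-arm bases 16160431 to 16160481, in the 3′ UTR of AT3G44580, were at 2.72, 8.61, 1.03 and 2.45 RPM, and the left-arm bases 16159427 to 16159476 that they align with were at 0.286, 2.58, 0.331 and 0.817 RPM. The right over left ratio was 9.49 (3.43 to 27.9), 3.34 (2.19 to 5.25), 3.13 (1.19 to 9.50) and 3.0 (1.70 to 5.33). The neighbouring right-arm bases 16160381 to 16160430 were at 4.70, 12.2, 2.38 and 2.89 RPM against 1.13, 7.10, 1.17 and 2.02 RPM. These windows were picked for their difference, so the ratios describe them and support nothing further.

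**Figure D2:**
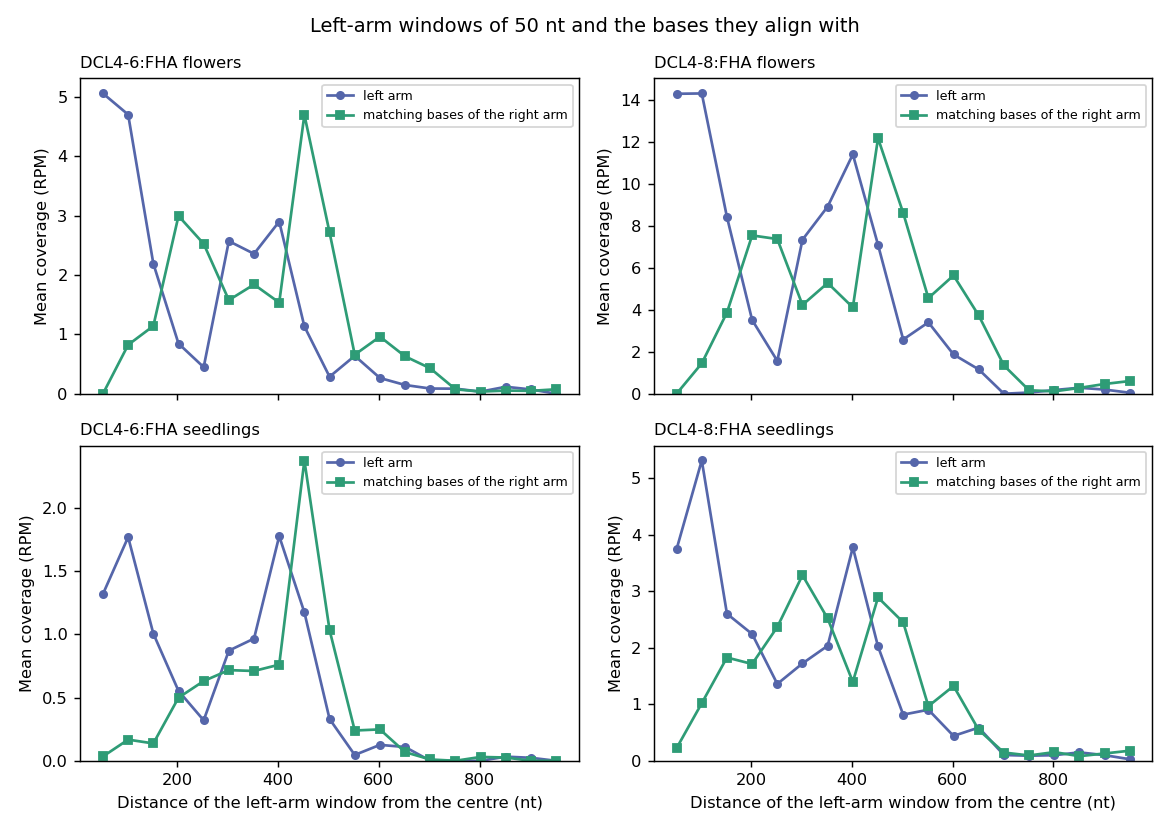
Mean coverage in RPM of 50 nt windows of the left arm (circles) and of the right-arm bases they align with (squares), against distance of the left window from the centre in nt, for the 4 tagged libraries. The left arm is higher in the innermost windows. Farther out the order of the arms turns several times and in some windows differs between libraries. The vertical scales differ between panels.

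The space between the genes took more of the coverage than its length. It is 24.6% of the interval and held 43.3% of the coverage in DCL4-6:FHA flowers (39.7 to 47.0), 36.1% in DCL4-8:FHA flowers (33.8 to 38.3), 32.2% in DCL4-6:FHA seedlings (27.2 to 37.7) and 41.8% in DCL4-8:FHA seedlings (38.9 to 44.7). AT3G44570, with 42.0% of the length, held 31.4%, 37.7%, 41.5% and 38.1%. AT3G44580, with 33.4% of the length, held 25.3%, 26.2%, 26.3% and 20.02%. Of the 2 WT reads in seedlings, 1 lay in AT3G44570 and 1 between the genes.

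Within AT3G44570 coverage stepped up from exon 2 to exons 3 and 4. The 5′ UTR part of exon 2 was at 0.0576 RPM in DCL4-6:FHA flowers, 0.170 in DCL4-8:FHA flowers, 0.0171 in DCL4-6:FHA seedlings and 0.0846 in DCL4-8:FHA seedlings, from 1 to 6.26 reads each. The coding part of exon 2 was at 0.117, 0.550, 0.0437 and 0.272 RPM. Exon 3 was at 1.93 RPM (1.63 to 2.28), 7.79 (7.06 to 8.58), 1.09 (0.873 to 1.33) and 2.16 (1.89 to 2.46), and exon 4 at 1.96 (1.45 to 2.56), 7.45 (6.25 to 8.78), 0.953 (0.630 to 1.37) and 2.71 (2.20 to 3.30). Exons 3 and 4 thus stood above both parts of exon 2 in every tagged library, with intervals that do not overlap.

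Coverage also lay over the introns of AT3G44570. The roles of the tools that gave the coverage are not stated, so it is unknown whether a read split across an intron counts within it. Spliced and unspliced RNA can therefore not be told apart here. Intron 3 (16159679 to 16159752) was covered at each of its 74 positions in all 4 tagged libraries, with a lowest depth of 3, 10, 2 and 16 reads. Its level over that of the 50 exon bases on each side was 0.228 in DCL4-6:FHA flowers (0.109 to 0.437), 0.261 in DCL4-8:FHA flowers (0.167 to 0.385), 0.347 in DCL4-6:FHA seedlings (0.135 to 0.749) and 0.655 in DCL4-8:FHA seedlings (0.454 to 0.934). At its left border depth went from 30 reads 5 bases before to 9 reads 5 bases after in DCL4-6:FHA flowers and from 55 to 17 in DCL4-8:FHA flowers, but from 9 to 9 and from 46 to 39 in seedlings. At the right border it went from 13 to 13, 30 to 42, 8 to 9 and 50 to 55.

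Intron 2 (16159356 to 16159442) showed no such dip except in 1 library. Its level over the exon bases beside it was 2.09 in DCL4-6:FHA flowers (0.858 to 5.87), 1.12 in DCL4-8:FHA flowers (0.755 to 1.63), 0.161 in DCL4-6:FHA seedlings (0.0181 to 0.715, from 1.94 reads in the intron) and 0.908 in DCL4-8:FHA seedlings (0.525 to 1.51). The intervals of the other 3 libraries include 1. In DCL4-6:FHA seedlings depth went from 3 to 2 reads at the left border of the intron and from 1 to 1 at its right border. The exon bases there were at 0.150 RPM on the left and 0.631 RPM on the right, so the low ratio rests mostly on the right side. The introns were examined after the profiles had been seen.

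In AT3G44580 the level per base was highest in the 3′ UTR. That part, 174 bases of exon 2, was at 2.66 RPM in DCL4-6:FHA flowers (2.24 to 3.13), 7.74 in DCL4-8:FHA flowers (6.89 to 8.66), 1.22 in DCL4-6:FHA seedlings (0.968 to 1.54) and 2.05 in DCL4-8:FHA seedlings (1.74 to 2.39). The 492 coding bases of the exon were at 0.261 RPM (0.189 to 0.358), 1.48 (1.26 to 1.73), 0.0534 (0.0235 to 0.0976) and 0.322 (0.251 to 0.408). The intervals do not overlap in any of the 4 libraries. The 14 bases of intron 1 at the end of the interval had coverage in DCL4-8:FHA seedlings only, worth 0.22 reads.

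**Figure D3:**
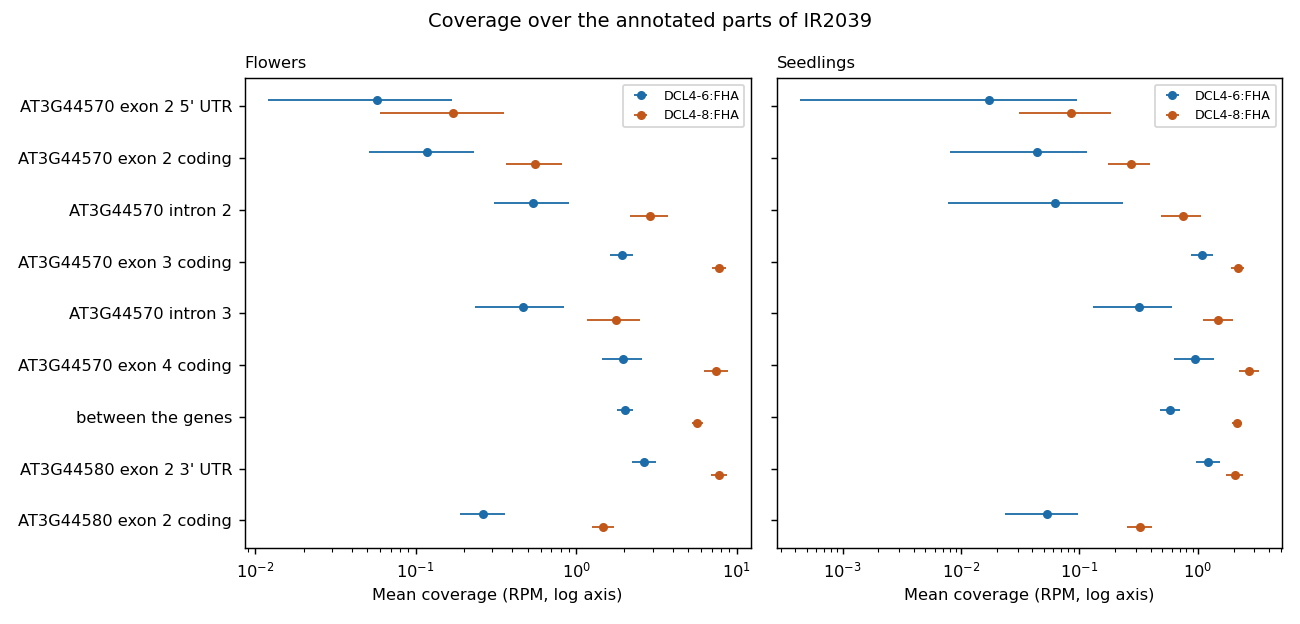
Mean coverage in RPM (log axis) over each annotated part of at least 50 bases, in interval order, for DCL4-6:FHA and DCL4-8:FHA in flowers and in seedlings. Points are single libraries and bars are exact Poisson 95% intervals for counting error; exons 3 and 4, the space between the genes and the 3′ UTR are the highest parts in each panel.

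IR2039 coverage in RPM was higher with DCL4-8:FHA than with DCL4-6:FHA in both arms and both tissues. In flowers the left arm was 3.62-fold higher (3.21 to 4.08) and the right arm 3.13-fold (2.76 to 3.56). In seedlings the left arm was 2.70-fold higher (2.28 to 3.19) and the right arm 3.03-fold (2.50 to 3.68). With the maximum over positions in place of the mean, the right arm in seedlings was 1.41-fold higher. With the median, the left and right arms were 5.61-fold and 4.21-fold higher in flowers and 5.45-fold and 8.98-fold higher in seedlings. The loop held too little coverage in either line for a ratio.

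Bin by bin the direction was the same. Of the 41 bins of 50 nt, 25 had coverage worth at least 20 reads over the 2 lines in flowers, and 24 of these were at least 2-fold higher in DCL4-8:FHA and 0 at least 2-fold lower. Over the bins of all 10 loci 96.8% were higher and 1.27% lower by that rule, so the share in IR2039, 96.0%, is near the background. In seedlings 22 bins entered, 19 of them at least 2-fold higher (86.4%) and 0 lower, beside 45.5% higher and 34.8% lower over all 10 loci. Bins of a locus share reads at their borders and are not replicates, and a count of bins weights a long locus more. The 10 loci include IR2039 itself and the inverted repeat IR71, with 7000 positions. In seedlings IR71 had 2695 reads with DCL4-6:FHA and 1517 with DCL4-8:FHA. Reads at miR822 and at the trans-acting siRNA precursors TAS1a, TAS1c, TAS2 and TAS3a went the other way.

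The fold varied from bin to bin, and the lowest and highest bins given here are extremes picked from all that entered. In flowers the median bin ratio was 3.50, the lowest was 1.65 (0.618 to 3.83) at 16160027 to 16160076, right of the loop, and the highest was 9.02 (3.11 to 26.9) at 16159427 to 16159476, over the border of intron 2 and exon 3. In seedlings the median was 3.23, the lowest was 1.19 (0.790 to 1.82) at 16160377 to 16160426 in the 3′ UTR of AT3G44580, and the highest was 19.6 (2.61 to 677) at 16159377 to 16159426 in intron 2, from 0.82 reads with DCL4-6:FHA. The intervals of the lowest and highest bins overlap in flowers and do not in seedlings. The seedling bin with the lowest ratio is also the highest bin of the DCL4-6:FHA library, at 2.30 RPM against 2.74 RPM with DCL4-8:FHA.

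**Figure D4:**
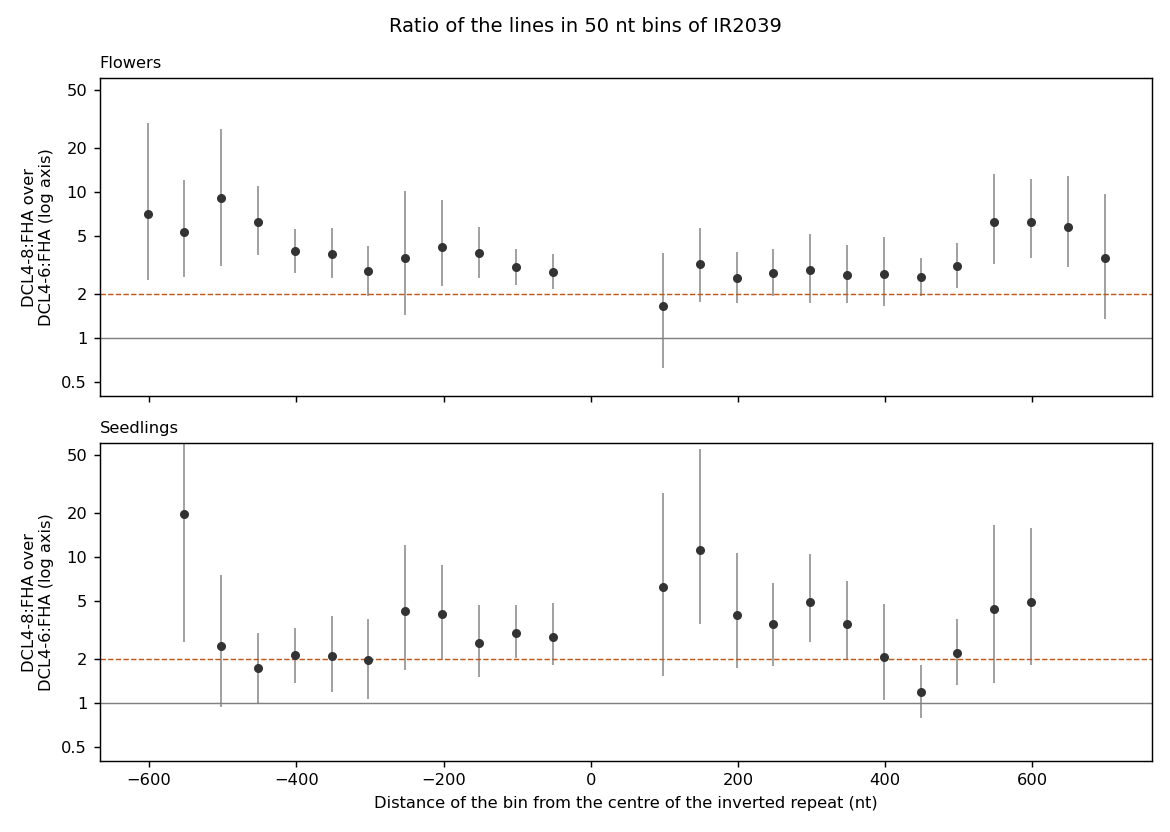
Ratio of DCL4-8:FHA to DCL4-6:FHA (log axis) in 50 nt bins with coverage worth at least 20 reads over the lines, against distance of the bin from the centre in nt, in flowers and in seedlings. Bars are exact conditional 95% intervals for counting error (1 reaches past the axis), the solid line marks a ratio of 1 and the dashed line a ratio of 2; no bin lies below 1.

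The outer parts carried the larger ratio between the lines. More than 500 nt from the centre, DCL4-6:FHA flowers were at 0.265 RPM and DCL4-8:FHA flowers at 1.37 RPM, a ratio of 5.16 (4.07 to 6.64), beside 3.14 (2.86 to 3.45) within 500 nt. In seedlings the levels beyond were 0.0553 and 0.352 RPM, a ratio of 6.36 (3.94 to 10.3), beside 2.60 (2.28 to 2.97) within. Dividing the outer ratio by the inner one gave 1.64 (1.27 to 2.15) for flowers and 2.44 (1.48 to 4.04) for seedlings. This boundary was chosen after the profiles had been seen, and with a boundary at 400 nt the value in seedlings turned to 0.715 (0.552 to 0.933).

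By annotated part the ratio of DCL4-8:FHA to DCL4-6:FHA ran from 2.81 (2.46 to 3.23) between the genes to 5.66 (3.96 to 8.11) in the coding part of AT3G44580 in flowers, among parts of at least 50 bases. In seedlings it ran from 1.68 (1.26 to 2.22) in the 3′ UTR of AT3G44580 to 11.9 (2.88 to 99.1) in intron 2 of AT3G44570. Exon 3 had 4.03 (3.33 to 4.91) in flowers and 1.99 (1.55 to 2.57) in seedlings, and the space between the genes 2.81 and 3.70 (2.97 to 4.60). The order of these parts thus differed between the tissues, and with 1 library per group it has no test.

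Coverage in RPM was higher in flowers than in seedlings with either line. With DCL4-6:FHA the left arm was 2.30-fold higher in flowers (1.92 to 2.74) and the right arm 2.97-fold (2.42 to 3.63). With the median over positions the latter was 7.32, and with the maximum 2.09. With DCL4-8:FHA the values were 3.08 (2.78 to 3.41) and 3.07 (2.74 to 3.43). Among parts of at least 50 bases, intron 3 had the smallest ratio, 1.48 (0.567 to 4.44) with DCL4-6:FHA and 1.19 (0.711 to 1.89) with DCL4-8:FHA. Both intervals include 1. The largest with DCL4-6:FHA was 8.63 (1.96 to 76.1) in intron 2 of AT3G44570, from 1.94 reads in seedlings. The largest with DCL4-8:FHA was 4.60 (3.45 to 6.18) in the coding part of AT3G44580, which had 4.89 (2.46 to 12.0) with DCL4-6:FHA.

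Across the 41 bins the 4 profiles were alike in broad shape. Pearson's r was 0.963 between the lines in flowers and 0.878 between the lines in seedlings. It was 0.898 between the tissues with DCL4-6:FHA and 0.915 with DCL4-8:FHA. These values describe the profiles, whose bins share a sequence and, within a library, a depth. Bins with little coverage in every library, at the outer ends and over the loop, enter r as well. A high r thus leaves room for the bin ratios and highest bins that differ between libraries.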

How the data were processed

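For each position the authors deposited a coverage signal in RPM, with no strand. Reads were single-end, 50 nt, per the labels' protocols. TAIR10, HISAT2 2.0.5 and bedtools 2.25.0 are named with no role, per the submitters' processing notes; strand and reads with several places: handling not given in the sources used here. Seedling libraries are called seeds in some file labels.

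Every coverage value was a whole multiple of 1 read, to within 1.61e-08 of a read, which gave the library totals. Coverage summed over a stretch and divided by 50 was taken as reads. These were rounded to whole reads for exact Poisson, binomial or conditional 95% intervals (scipy 1.17.1). No count model was fitted. The interval calculation was tested on simulated reads. Intervals cover counting error only, as the reads carry no molecular identifiers. Positions were read as counted from 1. Arms came from blastn 2.17.0 with at least 80% identity; their inner ends are the first 20 columns with 80% identity outward from the centre, set after the alignment was seen. The fold came from RNAfold 2.7.2, and genes from the TAIR10.1 RefSeq annotation.

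Named by rule were the overlapping genes, the highest 2 bins of each tagged library, the lowest arm bin and the bins with extreme ratios between the lines. The members and lists were chosen with earlier results of these data known. Alternatives were the counting of positions, division by places, the maximum or median, a filter on low values, the sides of the centre, a pseudocount of 0.01 RPM, bin widths, read minimums, loop windows and the boundary of the inner zone.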

Additional observations from a re-analysis of the deposited data

How the results depend on the processing

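Main directions kept under counting from 0 (28 results), division by genome places (16), the low-value filter (16), the sides of the centre (12), the pseudocount of 0.01 RPM (8), both other loop windows (8) and both other read minimums (8 in all); each value there moved by less than its counting interval, or a count by less than 1.5 times. The level measure mattered more. For right over left, the maximum gave 0.730 in DCL4-6:FHA flowers, 0.682 in DCL4-8:FHA flowers, 0.550 in DCL4-8:FHA seedlings and 1.08 (turned) in DCL4-6:FHA seedlings; the median crossed 1 to 2.17 in DCL4-6:FHA flowers, whose interval includes 1, and turned to 1.63 and 1.10 in DCL4-8:FHA flowers and seedlings. For DCL4-8:FHA over DCL4-6:FHA, the maximum gave 2.84 (left) and 2.65 (right) in flowers and 1.41 (right) in seedlings, and the median gave 5.61 and 4.21 in flowers and 5.45 and 8.98 in seedlings. For flowers over seedlings, the maximum gave 3.09 (left) and 2.09 (right) with DCL4-6:FHA and 3.93 (right) with DCL4-8:FHA, and the median 7.32 (right, DCL4-6:FHA) and 2.32 (left, DCL4-8:FHA). Bins at least 2-fold higher numbered 13 with bins of 100 nt and 38 with bins of 25 nt in flowers, and 11 with bins of 100 nt in seedlings, because the number of bins changes with their width. The outer over inner ratio of the lines in seedlings turned to 0.715 with the boundary at 400 nt; that boundary and the loop windows were chosen after seeing the data. Beyond those named, the cause of each shift was not tested. No paired analysis was possible because each group has 1 library. Depth limits the loop, where no library had a whole read's worth of coverage, and WT seedlings, with 2 reads.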

Other observations

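Some reads of IR2039 ended at the same places in several libraries. A stack was taken as the smaller of a rise in depth and the fall in depth 50 nt later, a measure chosen after the data were seen. The stack at 16160414 to 16160463, in the 3′ UTR of AT3G44580, held 16 reads in DCL4-6:FHA flowers, 53 in DCL4-8:FHA flowers, 7 in DCL4-6:FHA seedlings and 25 in DCL4-8:FHA seedlings. It was the tallest stack of both DCL4-8:FHA libraries and tied at 16 reads with the stack at 16160406 to 16160455 as the tallest of DCL4-6:FHA flowers. In DCL4-6:FHA seedlings the stack at 16160406 to 16160455 was the tallest, with 10 reads. The stack at 16159867 to 16159916, whose right end is the steep edge beside the loop, held 15, 44, 2 and 7 reads. The tallest stack of each library held 2.17%, 2.98%, 3.10% and 2.23% of its IR2039 reads. Identical reads could not be told from repeated copies of a molecule, since the files carry no molecular identifiers.

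The share of coverage in the highest bin of IR2039 lay between those of the other fold-back loci. Its highest 50 nt bin held 9.04% to 12.7% of the coverage in the tagged libraries, against 2.33% to 4.64% at the inverted repeat IR71, which is 7000 positions long, and 31.3% to 40.1% at the precursor of miR822, which is 337 long. A 50 nt bin is a larger part of a shorter locus, so the shares are not on equal terms and do not rank the loci by evenness.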
